A study of Homo sapiens with 4 samples.

Results

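The clustered protocadherins of human chromosome 5 were examined in H1 human embryonic stem cells, an established line, in the naïve and the primed state. The members are the protein-coding genes whose symbols begin with PCDHA, PCDHB or PCDHG. They number 53 of the 19983 protein-coding genes in the deposited files, with 15 in the alpha cluster, 16 in the beta cluster and 22 in the gamma cluster. The naïve cells were derived from H1 primed cells and kept in the FINE condition, a medium of kinase inhibitors used under low oxygen, to 50% confluency. The primed cells were grown in mTeSR to 60-70% confluency. Both carry the labelled genotype WT, and each state has 2 replicates. Nanopore cDNA reads were aligned to GRCh38, and each value is a raw count of the alignments that touch the span of a transcript, introns included. State, medium, oxygen and confluency cannot be told apart here, and nothing states that replicates came from separate cultures, so p-values measure only the spread between these libraries, which may be technical.

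Clustered protocadherins are cadherin-like cell-surface proteins best known from neurons, where each cell displays its own combination and uses it to tell its own branches from those of other cells. In the alpha and gamma clusters every gene has a large variable exon of its own, which encodes the extracellular part, the membrane anchor and a short cytoplasmic piece, and which is spliced to constant exons that all genes of the cluster share. The beta genes have a single coding exon and no shared constant exon. Each variable exon has its own promoter, most of which carry a conserved box with the letters CGCT inside a site for CTCF, an insulator protein that with cohesin brings promoters to distant enhancers. The C-type genes, PCDHAC1, PCDHAC2, PCDHGC3, PCDHGC4 and PCDHGC5, lie at the ends of the alpha and gamma clusters and are less subject to random choice in neurons. DNMT3B and SMCHD1 are known to help keep these promoters silent.

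On GRCh38 the alpha genes span chromosome 5 from 140786136 to 141012347, the beta genes from 141051374 to 141249365, and the gamma genes from 141330514 to 141512977, all on the plus strand. For each alpha gene an isoform was taken whose span ends with the last constant exon at 141012347, so that these spans differ only in where they start and are nested. The gamma isoforms taken all end at 141512975. Other isoforms of several genes end elsewhere and were not used for the differences. In these nested spans an alignment to the constant exons is counted for all genes of its cluster. The difference between the counts of neighbouring spans leaves the alignments that are confined to the interval between their starts. An interval holds 1 variable exon of a member and the intron after it. Some also hold other annotations, such as the pseudogenes PCDHA14, PCDHGB8P and PCDHGB9P in those of PCDHA10, PCDHGA11 and PCDHGA12, whose alignments are included. A shorter isoform of each gene, which holds the variable exon and not the constant exons, gave a second count. These isoforms had a median length of 3011 bases, but 13 of the 37 were longer than 4000, up to 12358 for PCDHA10, whose isoform also covers the pseudogene PCDHA14. Counts on such isoforms are not limited to the variable exon.

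Promoter sequences of 300 bases were available from RefSeq (GRCh38.p14) for 47 of the 53 members, and PCDHA3, PCDHA13, PCDHB6, PCDHB11, PCDHGA12 and PCDHGC5 had none. The letters CGCT were present in 46 of the 47, on the plus strand, and in 70.0% of all 35116 RefSeq promoters on either strand. In each promoter the CGCT whose surroundings were most like those of the same cluster was taken, and 45 of these 46 began upstream of the annotated start, at a median position of -59. The windows of PCDHA11 and PCDHGB7, also described below, are not shown. They shared a mean of 15.3 and 10.3 of 28 positions with the other windows of their clusters. The windows of some of the members described are shown with CGCT in capitals, so that the letters around it can be compared within and between clusters.
PCDHA6 (chr5:140827901-140827928): gccgcatgatgtCGCTgtctaccatgaa
PCDHA7 (chr5:140834176-140834203): gccacatgatgtCGCTctttaccgcaaa
PCDHA12 (chr5:140875248-140875275): gtcacatgatgtCGCTctacactcagaa
PCDHAC1 (chr5:140926224-140926251): agaaggtgtggtCGCTcacgttcaccgt
PCDHAC2 (chr5:140966369-140966396): gcagtccgggttCGCTgtccgccacttc
PCDHB1 (chr5:141051278-141051305): ggggagttgagtCGCTcaatgcaaattt
PCDHB2 (chr5:141094548-141094575): gacgcggggtggCGCTgcagccttagaa
PCDHB3 (chr5:141100397-141100424): aacgcatggtggCGCTgttgactaagaa
PCDHB5 (chr5:141135183-141135210): gacgcctggtggCGCTgcaggctaagag
PCDHB9 (chr5:141187078-141187105): gccacaaggtggCGCTgcagactgaaga
PCDHB16 (chr5:141182314-141182341): aacgcgtggtggCGCTgcaggttaagat
PCDHGA6 (chr5:141373839-141373866): gactctaagcgtCGCTgttgaccaacct
PCDHGA10 (chr5:141412935-141412962): gactctgagcgcCGCTgttcacctacta
PCDHGC3 (chr5:141475884-141475911): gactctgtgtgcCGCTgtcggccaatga
PCDHGC4 (chr5:141484956-141484983): gagcccgggagcCGCTgtctgccaatcg

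The letters around the box differed by cluster. TGTCGCT was in 10 of 13 alpha promoters, 1 of 14 beta promoters and 3 of 20 gamma promoters, and in 1.76% of all promoters. GGCGCTGC was in 11 of 14 beta promoters, in none of the alpha or gamma promoters, and in 4.38% of all. CCGCTGT was in 11 of 20 gamma promoters, in none of the alpha or beta promoters, and in 3.89% of all, and CGCTGT, which it contains, was in 17 of 20 gamma promoters and 11.2% of all. All 4 motifs hold CGCT, were chosen after the sequences were seen, and were searched on both strands. The windows of PCDHAC1, PCDHAC2 and PCDHB1 resembled their clusters least among those shown of the alpha and beta genes, with a mean of 11.7, 13.4 and 12.9 of 28 positions shared with the other windows, against 18.2 for PCDHA12 and 22.2 for PCDHB5. Some C-type promoters and that of PCDHB1 are known to depart from the usual site. The window of PCDHGC3, also a C-type gene, shared a mean of 19.5 of 28 positions with the other gamma windows. A match of letters is not a measured binding site.

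All 3 clusters were higher in the primed cells, the alpha cluster most and the gamma cluster least. The longest alpha span, that of PCDHA1, which encloses the whole cluster, held 7 and 7 alignments in naïve cells and 491 and 556 in primed cells. The beta genes together held 18 and 24 against 318 and 358. The longest gamma span, that of PCDHGA1, held 78 and 128 against 558 and 586. In each cluster both primed libraries lay above both naïve libraries.

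In CPM of the library size scaled by TMM, edgeR's normalization, the alpha cluster averaged 0.289 ± 0.0206 in naïve and 17.4 ± 1.03 in primed cells (SD, n = 2), a 60.2-fold difference. The 95% counting interval of the ratio was 35.9 to 111. The beta sum averaged 0.861 ± 0.114 against 11.2 ± 0.618 CPM, a 13.1-fold difference with an interval of 9.52 to 18.2. The gamma cluster averaged 4.20 ± 1.16 against 19.1 ± 0.111 CPM, a 4.53-fold difference with an interval of 3.87 to 5.23. These intervals do not overlap between clusters, and they and all others given cover counting error only. An exact two-sided permutation test over 2 against 2 libraries gave p = 0.333 for each cluster, the smallest it can give, so this design cannot reach 0.05 for a single value. By edgeR's quasi-likelihood test across all genes, the span of PCDHGA1 had a log2 fold change of 2.17 ± 0.19 (SE, adjusted p = 7.96e-14). That of PCDHA1 had one of 5.89 ± 0.28, but it reached the minimum of 10 counts for the test only in the primed libraries and had to be higher there, so no p is given. With library size in place of TMM the folds were 94.0 for alpha, 20.3 for beta and 7.02 for gamma.

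**Figure D1:**
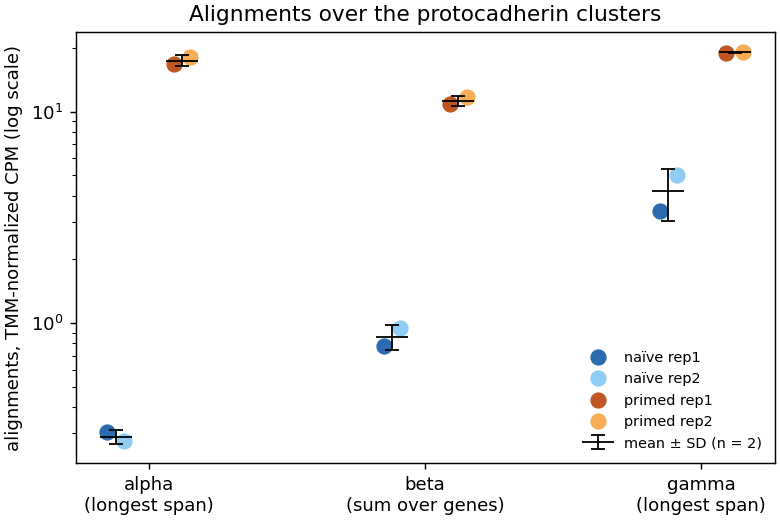
The points give the level of each cluster in each of the 4 libraries, in TMM-normalized CPM on a log axis, and the black marks give the mean ± SD of the 2 libraries of a state. The alpha cluster moves from 0.289 to 17.4 CPM and the gamma cluster from 4.20 to 19.1 CPM.

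The balance between the clusters differed with the state. The longest alpha span held 0.0897 and 0.0547 alignments for each alignment on the longest gamma span in naïve cells, and 0.880 and 0.949 in primed cells. The beta sum came to 0.231 and 0.188 of the gamma span in naïve cells and to 0.570 and 0.611 in primed cells. These ratios lie within a library and do not depend on how libraries are scaled. In naïve cells most protocadherin alignments were thus on the gamma cluster, and in primed cells alpha and gamma were close to equal. In bulk RNA, fewer cells that express a cluster and less RNA per cell cannot be told apart.

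Depth and identity of the libraries bear on all of these values. Gene-level library sizes ran from 23489368 to 30936850 counts, with TMM factors of 0.779 and 0.824 in naïve against 1.25 and 1.24 in primed libraries. Using library size instead moved the median change over all genes by 0.64 on the log2 scale, from 0.08 to 0.72. All 8 naïve markers were lower and all 8 primed markers higher in primed cells, beside 32.6% lower and 37.4% higher of all genes tested. Of the naïve markers 4 did not reach the minimum of 10 counts in both primed libraries. Of the primed markers 6 did not reach it in both naïve libraries, so the direction of these markers was largely fixed. KLF17 fell only by 0.41 on the log2 scale and turned positive under library size. The 7 trophoblast and amnion markers, the genes of the early placenta and its membrane, summed to 1644 and 1965 CPM in naïve and to 8.77 and 6.37 in primed libraries, and the 5 fibroblast markers to 2.13 and 1.92 against 56.8 and 58.7. Of the trophoblast list 6 were lower in primed cells, 4 of which did not reach the minimum in both primed libraries, and KRT7 did not pass. Of the fibroblast list 3 were higher, 2 of which did not reach the minimum in both naïve libraries. COL1A1 held 36 and 30 counts in naïve and 948 and 1174 in primed libraries, and COL1A2 held 9 and 17 against 706 and 605. POSTN held 2 and 2 against 12 and 14, LUM 1 and 0 against 5 and 4, and DCN 1 and 0 against 0 and 1. The part of these cells in the protocadherin values was not tested.

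The beta genes were low and uneven, and a few held most of the signal in primed cells. PCDHB5 held 2 and 0 alignments in naïve and 89 and 81 in primed libraries. PCDHB2 held 4 and 5 against 74 and 76, and PCDHB9 held 0 and 1 against 35 and 54. These 3 genes were far above their naïve counts in both primed libraries. PCDHB16 held 1 and 0 against 37 and 33, PCDHB15 held 1 and 2 against 24 and 35, and PCDHB11 held 0 and 1 against 13 and 18. These 6 genes reached 10 counts in 2 libraries, the minimum for the test, and each reached it only in the primed libraries, so that they had to differ in that direction.

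In edgeR's fit the log2 fold change of PCDHB5 was 5.95 ± 0.55 (SE) and that of PCDHB2 was 3.72 ± 0.41. No p is given for these 6 genes, which reached the minimum only in the primed libraries. The other 4 lay between 3.89 and 5.88, with PCDHB15 lowest and PCDHB9 highest. As a ratio of summed counts PCDHB2 was 13.5-fold higher in primed cells, with an interval of 6.91 to 30.0. PCDHB5, with 2 naïve alignments, had a ratio of 68.7 with an interval of 18.7 to 572. PCDHB16 and PCDHB9, with 1 naïve alignment each, had ratios of 56.6 (9.83 to 2266) and 71.9 (12.6 to 2873).

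The other 10 beta genes did not reach the minimum. PCDHB3 held 8 and 9 alignments in naïve and 7 and 10 in primed libraries, a ratio of 0.808 with an interval of 0.388 to 1.68. It had the most naïve alignments of the beta genes, 17 over both libraries, and its interval includes no change, unlike that of its neighbour PCDHB2. PCDHB7 held 1 alignment in a single primed library. PCDHB6 and PCDHB8 held none in naïve libraries and at most 4 in a primed library. PCDHB10 held none in naïve cells and 12 and 4 in primed cells, at least 2.17-fold higher when each naïve library is set to 3 counts, the limit that a count of 0 allows. PCDHB1, PCDHB4, PCDHB12, PCDHB13 and PCDHB14 held between 0 and 3 alignments in a naïve library and between 2 and 13 in a primed library.

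Over all 16 beta genes, in CPM, 14 had both primed libraries above both naïve libraries, PCDHB3 had both below, and PCDHB7 overlapped. By library size, a check added after the values were seen, PCDHB3 lay at 0.270 and 0.291 CPM in naïve and 0.298 and 0.406 in primed libraries, so that its direction turned and 15 genes were higher. Over all 50139 genes with at least 1 count, 36.5% had both primed libraries above and 29.4% both below. Without the count minimum, edgeR called 10 of the 16 beta genes higher in primed cells and none lower, against 22.9% of all genes called higher. With the minimum, 37.4% of the 27633 genes tested were called higher and 32.6% lower, a background of 70.0% in either direction.

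Per kilobase of exon, the order of the beta genes in primed cells began with PCDHB5 at a mean level of 0.831 CPM per kb, with 0.887 and 0.775 in its libraries. PCDHB2 followed at 0.611, with 0.615 and 0.607, and lay below PCDHB5 in both libraries. PCDHB9 and PCDHB16 had means of 0.337 and 0.304 CPM per kb, and their libraries overlapped, at 0.272 and 0.402 against 0.328 and 0.281. PCDHB15 at 0.247 overlapped with both, while PCDHB11 at 0.124 lay below all of these. In naïve cells PCDHB3 led at 0.104 CPM per kb and PCDHB2 followed at 0.0452.

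**Figure D2:**
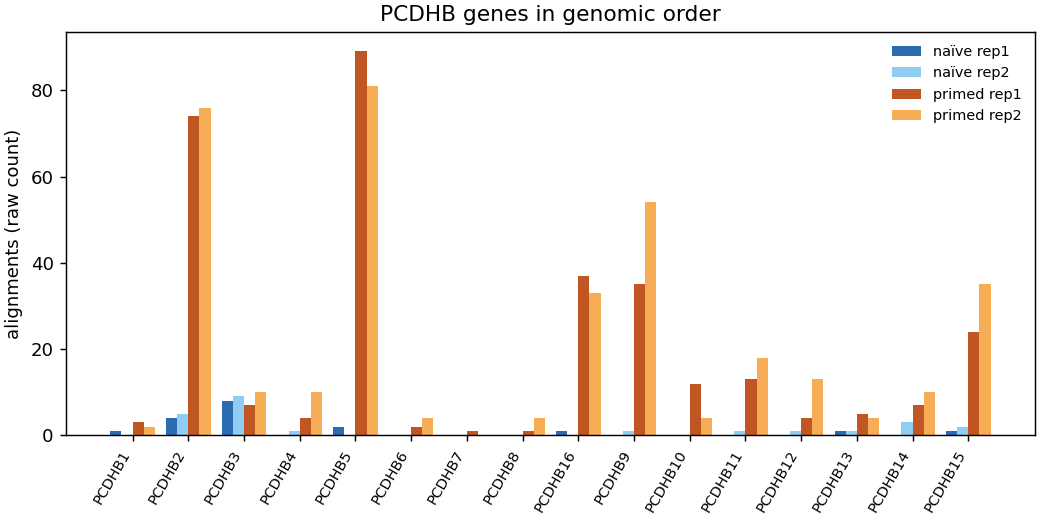
Bars give the raw number of alignments on each of the 16 PCDHB genes, in genomic order, in each of the 4 libraries. PCDHB2 and PCDHB5 reach between 74 and 89 alignments in primed libraries, and PCDHB3 has similar heights in all 4 libraries, from 7 to 10.

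The beta genes resemble each other in sequence, and strand was not used in counting, which limits how far a count belongs to 1 gene. The transcript of each beta gene matched that of its closest other member over at least 953 bases at 66.1% to 94.0% identity, with a median of 82.8%. PCDHB8 and PCDHB13 were the closest pair, at 94.0% identity over 2643 bases, and PCDHB9 and PCDHB10 shared 92.9% over 2401. Alignments at several places were counted at each of them, so counts of such pairs can share reads. Antisense annotations cover most of the cluster, among them ENSG00000280029 across PCDHB5 to PCDHB14, and reads of these cannot be told apart from reads of the beta genes.

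In the alpha cluster nearly all of the signal was in primed cells. The interval of PCDHA12 held 0 and 1 alignments in naïve and 89 and 78 in primed libraries. PCDHA13 held 1 and 0 against 41 and 64, and PCDHA11 held 0 and 2 against 39 and 48. These neighbouring genes at the 3′ end of the ordinary alpha genes had the most confined alignments. The interval of PCDHAC1, a C-type gene, held 1 and 0 against 37 and 42. PCDHA4 held 0 and 2 against 30 and 32.

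PCDHA6 held none in naïve cells and 32 and 20 in primed cells, and PCDHA7 none against 30 and 30. Set against 3 counts in each naïve library, PCDHA6 was at least 7.02-fold and PCDHA7 at least 8.07-fold higher in primed cells. PCDHA12, with 1 naïve alignment, had a ratio of 135 with an interval of 23.9 to 5363. In edgeR's fit PCDHA12 had a log2 fold change of 6.79 ± 0.61 (SE) and PCDHA11 one of 4.99 ± 0.63. No p is given, since both reached the minimum only in the primed libraries. The fitted log2 fold changes of PCDHA7 and PCDHA6, 7.77 and 7.57, depend on the prior count because their naïve counts are 0.

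All 14 alpha intervals had both primed libraries above both naïve libraries, against 36.5% of all genes. No interval held more than 2 alignments in a naïve library, and 6 of the 14 held none in both. In primed libraries the intervals held between 3 and 89. The 13 that reached the count minimum did so only in the primed libraries. Of those tested, PCDHA1 had the smallest log2 fold change, 3.41, with 2 and 0 against 15 and 14 alignments. PCDHA8 did not reach the minimum, with 0 and 0 against 3 and 11. Without the minimum all 14 were called higher, against 22.9% of all genes.

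**Figure D3:**
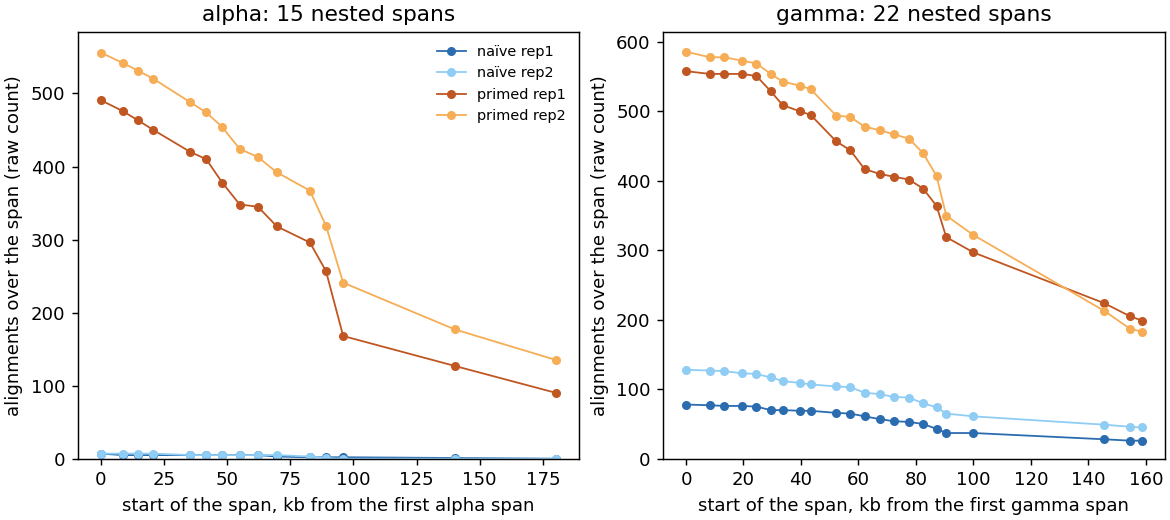
Each point is the raw number of alignments over a nested span, placed by the distance of its start from the start of the first span of its cluster in kb, with a line for each of the 4 libraries. A steep drop between neighbouring points marks an interval with many confined alignments, as at PCDHA12 in the alpha cluster, and the naïve libraries lie between 0 and 7 for alpha.

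The share of each alpha gene was alike between the primed libraries for most genes. Of the alignments confined to alpha intervals, PCDHA12 took 22.2% (95% Wilson interval 18.4 to 26.5%) and 18.5% (15.1 to 22.5%). PCDHA13 took 10.2% and 15.2%, and PCDHA11 9.73% and 11.4%. PCDHA8 took the least in the first primed library, 0.748% (0.255 to 2.18%), and 2.61% (1.47 to 4.62%) in the second, where PCDHA2 and PCDHA3 also took 2.61%. The PCDHA13 interval is 44.2 kb long and the PCDHA12 interval 6.82 kb, so these shares do not rank the genes by level.

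The short isoforms over the variable exons gave another measure of the same genes. PCDHA12-202, an isoform of PCDHA12 that is 2588 bases long, held 0 and 0 alignments in naïve and 100 and 83 in primed libraries, at least 24.7-fold higher. Its mean level in primed cells, 1.18 CPM per kb, was the highest of the 15 alpha genes, with 1.31 and 1.05 in its libraries. PCDHA11 followed at 0.547 CPM per kb, with 0 and 0 against 59 and 53 alignments on PCDHA11-202. PCDHAC2, PCDHA6 and PCDHA13 had 0.286, 0.282 and 0.248 CPM per kb, and their libraries overlapped. PCDHA8 was lowest at 0.0580 CPM per kb.

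All 15 alpha variable exons had both primed libraries above both naïve libraries, against 36.5% of all genes, and 12 of the 15 held no naïve alignment at all. PCDHAC1-202 held 0 and 0 against 27 and 22 and PCDHAC2-203 held 0 and 0 against 18 and 34, so the C-type alpha genes were at 0 in naïve cells on this measure as well. Set against 3 counts, PCDHAC1 was at least 6.60-fold and PCDHAC2 at least 6.95-fold higher in primed cells. PCDHA10 had the most naïve alignments, 1 and 2 against 42 and 51, on an isoform 12.4 kb long. The 14 alpha variable exons tested reached the minimum only in primed libraries, so their calls were fixed in direction. Across all 170036 transcripts tested 35.8% were called higher and 69.1% in either direction.

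An antisense lncRNA annotation, ENSG00000278915, lies within the PCDHA12 variable exon and held 0 and 0 against 95 and 80 alignments, close to the counts of PCDHA12-202. Since strand was ignored, the same alignments may have been counted for both, and the share of each strand was not tested. The identity of alpha genes to their closest other member ran from 66.5% to 91.7% with a median of 82.3% over 14 genes.

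The gamma genes were present in naïve cells and were higher, by less, in primed cells. The interval of PCDHGA12 held 9 and 12 alignments in naïve and 73 and 109 in primed libraries. It is 45.5 kb long and also covers the pseudogene PCDHGB9P, so its count does not rank the gene. The short isoform PCDHGA12-202 held 7 and 9 against 25 and 24, with a log2 fold change of 1.30. PCDHGB7 held 6 and 9 against 45 and 57, and PCDHGA10 held 7 and 6 against 25 and 33. In all 3 genes both primed libraries lay above both naïve libraries. PCDHGA6 held 3 and 3 against 38 and 38, PCDHGA11 held 0 and 4 against 22 and 28, and the C-type gene PCDHGC3 held 2 and 3 against 19 and 26.

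In edgeR's fit PCDHGA6 had a log2 fold change of 3.31 ± 0.50 (SE) and PCDHGA11 one of 3.27 ± 0.62. The PCDHGA11 interval also covers the pseudogene PCDHGB8P, which held 0 and 1 alignments in naïve and 15 and 17 in primed libraries. The short isoform PCDHGA11-203 held 2 and 4 against 23 and 18, with a log2 fold change of 2.425. No p is given for single gamma intervals, since none reached the minimum in both naïve libraries. PCDHGA12 and PCDHGC3 had 2.79 ± 0.35 and 2.81 ± 0.57. As ratios of summed counts, PCDHGB7 was 5.50-fold higher in primed cells, with an interval of 3.18 to 10.2, and PCDHGA10 was 3.61-fold higher, with an interval of 1.95 to 7.17. PCDHGB6 had the smallest log2 fold change among those tested, 1.31 ± 0.52, with 3 and 8 against 13 and 21 alignments.

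Over all 21 gamma intervals, 17 had both primed libraries above both naïve libraries, PCDHGA2 had both below, and PCDHGA3, PCDHGA8 and PCDHGB5 overlapped, against 36.5% of all genes above and 29.4% below. By library size PCDHGA8 and PCDHGB5 were also higher, which gave 19 of 21. PCDHGA2 held 1 and 1 against 0 and 0, which is within counting error. PCDHGB5 held 3 and 4 against 4 and 6, a ratio of 1.16 with an interval of 0.397 to 3.57. PCDHGA8 held 4 and 2 against 7 and 5, a ratio of 1.62 with an interval of 0.561 to 5.25. The 11 intervals below the count minimum held at most 13 alignments in a library. Among them was PCDHGC4, with 0 and 1 against 6 and 4, a ratio of 8.08 with an interval of 1.15 to 351. The 10 intervals tested reached the minimum in both primed libraries, none of them in both naïve libraries, and were called higher by edgeR, against 6 by DESeq2. Without the minimum 11 of 21 were called higher. Over all genes 22.9% were called higher without the minimum and 37.4% with it. PCDHGA4, PCDHGB2, PCDHGB4 and PCDHGB6 did not pass with DESeq2. Without the first naïve library PCDHGB2, PCDHGB4 and PCDHGB6 did not pass, without the first primed library PCDHGA4, PCDHGB2 and PCDHGB4, and without the second primed library PCDHGB6.

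**Figure D4:**
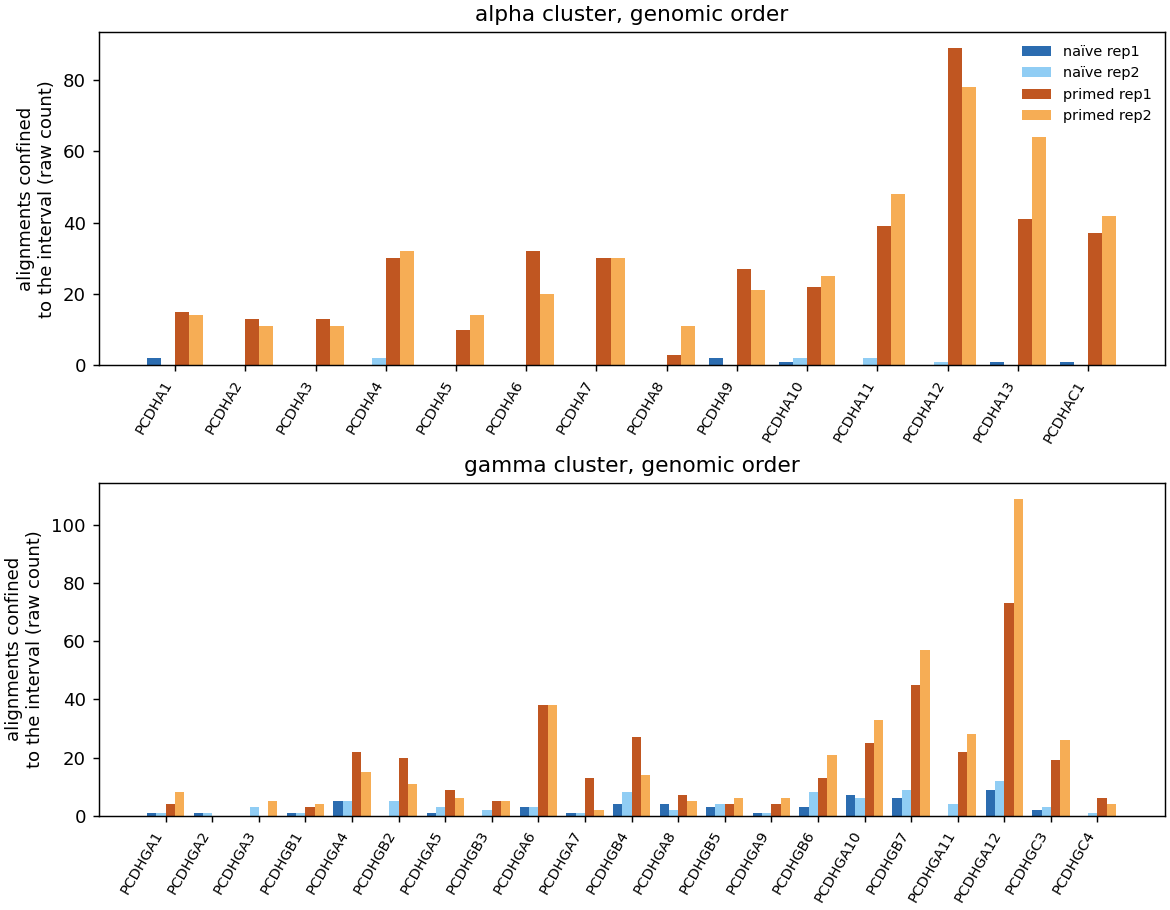
Bars give the raw number of alignments confined to each of the 14 alpha intervals and 21 gamma intervals, in genomic order, in each of the 4 libraries. Naïve bars reach at most 2 in the alpha cluster and 12 in the gamma cluster, and the tallest primed bars are those of PCDHA12 and PCDHGA12.

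On the shorter isoforms over the gamma variable exons, 18 of 22 had both primed libraries above both naïve libraries. PCDHGA2 had both below, and PCDHGA3, PCDHGA4 and PCDHGB5 overlapped. Over all genes 36.5% had both above and 29.4% both below. By library size PCDHGA2 overlapped and PCDHGA4 was higher. PCDHGA10-202 held 15 and 18 against 66 and 85 alignments, and PCDHGB7-202 held 6 and 12 against 62 and 67. Both rose, by 1.88 ± 0.34 (SE, edgeR adjusted p = 7.56e-08) and by 2.52 ± 0.39 on the log2 scale. No p is given for PCDHGB7-202, which did not reach the minimum in both naïve libraries. The PCDHGB5 exon held 5 and 12 against 11 and 9, with a log2 fold change of -0.07 ± 0.53 (adjusted p = 0.916), a ratio of 0.951 and an interval of 0.473 to 1.93. It was the only variable exon tested, alpha or gamma, that was not called by edgeR. Of the exons tested only PCDHGA10-202 reached the minimum in both naïve libraries, so most of the calls were largely fixed in direction. PCDHGA2, PCDHGA3 and PCDHGA4 were not tested.

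Per kilobase, PCDHGB7 had the highest mean level of the gamma variable exons in primed cells, 0.771 CPM per kb, with 0.757 and 0.785 in its libraries. PCDHGA10 followed at 0.562 with 0.503 and 0.622, and PCDHGC3 at 0.376 with 0.489 and 0.264, and their libraries did not overlap. In naïve cells PCDHGA10 was at 0.152, PCDHGB7 at 0.131 and PCDHGB5 at 0.129 CPM per kb, with overlapping libraries. The promoter window of PCDHGB7 shared a mean of 10.3 of 28 positions with the other gamma windows, the fewest of the cluster. PCDHGC3 was far above the other C-type gamma genes. PCDHGC4-203 held 0 and 1 against 12 and 5 alignments, and PCDHGC5-202 held 0 and 0 against 3 and 2.

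The position of alignments along the clusters was described from the nested spans. The last alpha span, that of PCDHAC2, holds the constant exons and the variable exon of PCDHAC2. It held 0 and 0 alignments in naïve and 90 and 135 in primed libraries. That is 18.3% (95% Wilson interval 15.2 to 22.0%) and 24.3% (20.9 to 28.0%) of the primed alignments over the alpha cluster. The other 81.7% and 75.7% did not touch this span. PCDHAC2-203, over the variable exon, held 18 and 34 in primed libraries, so these shares are not of the constant exons alone. In naïve cells 0 of 7 alignments in each library were on the last span, which allows up to 35.4%. At this depth a difference between the states was not detectable. PCDHAC2 was at least 30.1-fold higher in primed cells over its span, which includes the alignments to the constant exons.

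The last gamma span, that of PCDHGC5, held 26 and 45 against 199 and 183 alignments. These were 33.3% and 35.2% of the naïve and 35.7% and 31.2% of the primed alignments over the gamma cluster, and all 4 intervals overlapped. The span rose in primed cells, with a log2 fold change of 2.12 ± 0.25 (SE, edgeR adjusted p = 5.07e-10). Since the variable exon of PCDHGC5 itself held at most 3 alignments in a library, few of the alignments on its span were on that exon. All 22 nested gamma spans were called higher, against 37.4% of all genes tested, with log2 fold changes of 2.12 to 2.42, but neighbouring spans share most of their alignments and are not separate results. The 15 nested alpha spans held at most 7 alignments in a naïve library and reached the minimum only in primed libraries, so their calls were fixed in direction.

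Comparing the count on a variable exon with the count confined to its interval gives a lower bound on the alignments that run past the next start. Over 12 alpha genes at least 15.9% (12.4 to 20.1%) and 16.4% (12.7 to 21.0%) of the variable-exon alignments did so in primed libraries. PCDHA10 supplied much of this, with at least 47.6% and 51.0%, and the end of its long isoform overlaps the short isoform of PCDHA11. Without PCDHA10, a check added after the values were seen, the bounds were 11.5% (8.40 to 15.6%) and 9.49% (6.46 to 13.7%). Over 20 gamma genes the bounds were 33.8% and 29.5% in naïve and 31.1% and 23.3% in primed libraries, with overlapping intervals. PCDHGA10 stood high among them, with at least 53.3% and 66.7% in naïve and 62.1% and 61.2% in primed libraries. PCDHA12 had at least 11.0% and 6.02% in primed libraries. For PCDHGC3 the primed libraries gave 53.7% and 0.0%, where the second held fewer alignments on the exon than in its interval, so that the bound says nothing.

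**Figure D5:**
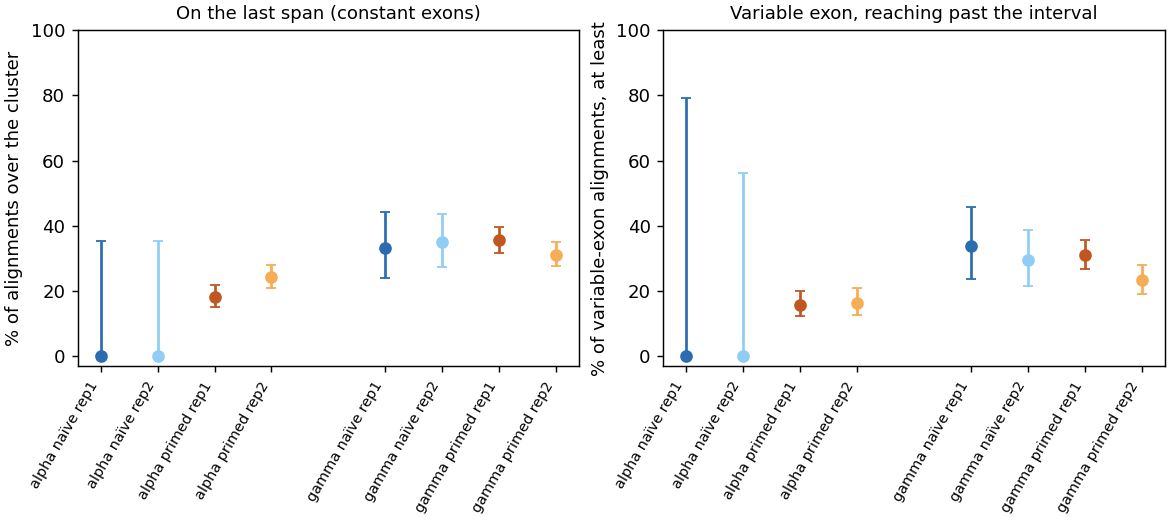
The left panel gives the share of the alignments over a cluster that touch its last span, and the right panel the least share of variable-exon alignments that run past their interval, in % with 95% Wilson intervals, by cluster and library. The naïve alpha points rest on 7 alignments or fewer and have wide intervals, and the gamma points lie between 23.3% and 35.7%.

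Isoform usage within single genes gave no call. Of the members' isoforms 86 were tested by edgeR's diffSpliceDGE, 0 passed an adjusted p under 0.05 with a change of isoform fraction beyond 0.1, and 2 had an unadjusted p under 0.05. Across all 159577 isoforms tested 0.580% were called. For 14 of the 86 no isoform fraction could be formed, because a library held 0 alignments on the gene.

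The genes known to act on these clusters, apart from DNMT3L, had smaller log2 fold changes than the longest spans of the clusters. Of 24 regulators tested, 4 were higher and 13 lower in primed cells, with a median log2 fold change of -0.38 beside 0.08 for all genes, of which 37.4% were higher and 32.6% lower. Under library size the count was 10 higher and 3 lower, and 10 of the 24 changed sign. CTCF held 481 and 697 alignments in naïve and 514 and 545 in primed libraries, a log2 fold change of -0.45 ± 0.16 (SE, edgeR adjusted p = 0.0106) that became 0.18 under library size. SMCHD1 held 438 and 557 against 412 and 508, with -0.42 ± 0.16 (adjusted p = 0.0182) and 0.22 under library size. Neither gene thus had a direction that held under both scalings.

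DNMT3B, a DNA methyltransferase, rose from 1080 and 1222 to 2438 and 2791 alignments, with a log2 fold change of 0.88 ± 0.14 (SE, edgeR adjusted p = 1.02e-06). DNMT3L, its catalytically inactive partner, fell from 4540 and 3798 to 4 and 2 (log2 fold change -10.69 ± 0.29). It is also a naïve marker and reached the minimum only in the naïve libraries, so no p is given. MAU2, which with NIPBL loads cohesin, rose the most of the list, from 110 and 111 to 432 and 467 (1.71 ± 0.18). Of 17 genes of cleavage and signalling downstream of protocadherins, 6 were higher and 7 lower, which is near the 37.4% and 32.6% of all genes, and 9 and 3 under library size. WASF1, of the WAVE actin complex, rose most, from 18 and 11 to 251 and 257 (3.81 ± 0.28), and ABI1 of the same complex fell most, from 751 and 887 to 439 and 447 (-1.19 ± 0.15).

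Protocadherins outside the clusters, which have no shared constant exons, gave 6 higher and 2 lower of 9 tested out of 12, and 8 higher and 1 lower under library size, beside 37.4% higher and 32.6% lower of all genes. Of the 9, 3 reached the minimum only in primed libraries, PCDH10 among them. PCDH10 held 1 and 0 alignments in naïve and 128 and 119 in primed libraries (log2 fold change 7.35 ± 0.56). PCDH12, known from endothelium and placenta, fell from 272 and 268 to 49 and 34 (-3.01 ± 0.23), and with the longest isoform as the measure its log2 fold change was 1.55. PCDH1 held 235 and 203 against 234 and 282 and was not called.

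Of the genes on the flanks of the clusters and between them, 5 were higher and 9 lower of 14 tested, with a median log2 fold change of -0.86, beside 37.4% higher and 32.6% lower of all genes. Under library size 5 were higher and 6 lower. TAF7, a subunit of the general transcription factor TFIID that lies between the beta and gamma clusters, held 910 and 847 alignments in naïve and 1795 and 1571 in primed libraries, a log2 fold change of 0.63 ± 0.15 (SE, edgeR adjusted p = 0.000297). DIAPH1, an actin nucleator just beyond the gamma cluster, held 596 and 787 against 437 and 577 (-0.75 ± 0.16), and under library size it was at -0.12 and not called (edgeR adjusted p = 0.533). ARAP3 rose most, from 28 and 28 to 148 and 144 (2.07 ± 0.26), and HARS2, on the alpha side, fell most, from 535 and 536 to 109 and 80 (-2.81 ± 0.19). The neighbours thus moved in both directions, HARS2 by more on the log2 scale than the longest gamma span and by less than the longest alpha span.

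Markers of neurons and neural progenitors, the cells best known for these genes, were mostly low in both states. Of the 8, 5 were tested, and the 4 called higher reached the minimum only in primed libraries, so they had to be higher there. DCX held 7 and 4 against 81 and 70 alignments, MAP2 held 1 and 3 against 81 and 98, and STMN2 held 1 and 0 against 39 and 35. PAX6 held 3 and 4 against 18 and 10. TUBB3 held 572 and 418 against 813 and 634 and was not called, NEUROD1 was at 0 in all 4 libraries, and SOX1 held 1 alignment in a single primed library. The whole list summed to 25.3 and 16.9 CPM in naïve and to 35.4 and 27.9 CPM in primed libraries, of which TUBB3 was the main part, and the part of neural cells in the protocadherin values was not tested.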

How the data were processed

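For each library the authors deposited raw counts of alignments per transcript, made with minimap2 and, per the file headers, featureCounts 2.0.0 on the Ensembl 105 annotation of GRCh38 (options -L -O -M, whole transcript spans, strand ignored). A read aligned at several places counts at all of them, and for all spans there, so that counts are not molecules. The totals ran from 129276054 to 161548901. Identifiers were matched to GENCODE 44: 242542 of 244825 transcripts matched, and all 130 member transcripts had the same coordinates. The remainder held at most 1.15% of a library's counts and was left out.

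For a gene, the isoform with the highest mean count was taken. Genes, intervals and transcripts that reached 10 counts in 2 or more libraries were tested two-sided by edgeR 4.0.16 (TMM, quasi-likelihood, state as the only term; R 4.3.3), with Benjamini-Hochberg adjustment over all features tested and a call at an adjusted p under 0.05. For the intervals, alpha and gamma genes were replaced by the differences of neighbouring nested spans, which hold the alignments confined to the interval, and by the last span. The short isoforms of PCDHA9, PCDHA11 and PCDHGA8 begin before their interval and were left out of the shares that run past it. Levels compared between genes are CPM per kb of exon. Ratios of summed counts have exact binomial 95% intervals scaled by the effective library sizes. Replicates were distinct libraries, with a chi-square per degree of freedom of 13.2 for naïve and 7.82 for primed. Sequences were matched with blastn 2.17.0. Python 3.11.15, pandas 2.3.3 and scipy 1.17.1 were used, and the fits were tested on simulated data.

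Named were the tested beta genes, the C-type genes, the longest and shortest spans, the 5 intervals of each cluster with the largest mean count and the 3 with the largest log2 fold change, CTCF, SMCHD1, DNMT3B, DNMT3L, TAF7, DIAPH1, and the called gene with the largest change in each direction of each list. Others, including PCDHB3, PCDHGB5, PCDH1 and the markers, were named after their values were seen. The members and the lists were chosen with earlier results of these data known. Alternatives were DESeq2 1.42.0, library size, the replicate number as a block, other count minimums, a log2 fold change beyond 1, the longest isoform, and each library left out.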

Additional observations from a re-analysis of the deposited data

Results flagged for a closer look

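Transcripts in and between the clusters that are not among the 53 genes also held alignments in primed cells above their naïve level. Of 34 such genes, 16 reached the minimum for edgeR's quasi-likelihood test and were called higher in primed cells, against 37.4% of all genes tested. Of these, 15 reached it only in primed libraries and so had to be higher, and ENSG00000272154 reached it in both states. Among the 18 not tested, ENSG00000279558 held 0 and 2 against 0 and 0. Counts are given as naïve against primed libraries.

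On the minus strand, antisense to the protocadherins, 8 lncRNA annotations were higher. They were ENSG00000279726 (2 and 2 against 117 and 107, log2 fold change 5.42), ENSG00000278946 (0 and 0 against 12 and 14, log2 fold change 6.57), ENSG00000278915 (0 and 0 against 95 and 80, log2 fold change 9.31), ENSG00000278901 (0 and 1 against 19 and 21, log2 fold change 4.73), PCDHB1-AS1 (8 and 13 against 85 and 89, log2 fold change 2.73), ENSG00000272154 (14 and 13 against 256 and 273, log2 fold change 3.97), ENSG00000280029 (5 and 8 against 284 and 312, log2 fold change 5.19) and ENSG00000278936 (1 and 1 against 84 and 90, log2 fold change 5.99). Strand was ignored in counting, so alignments to protocadherin exons within these spans are included in them, and for ENSG00000278946 and ENSG00000278915, at 0 in naïve cells, the fitted change depends on the prior count.

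The pseudogenes that were higher were PCDHB17P (0 and 2 against 12 and 12, log2 fold change 3.14), PCDHGB8P (0 and 1 against 15 and 17, log2 fold change 4.42) and PCDHGB9P (0 and 1 against 11 and 12, log2 fold change 3.94). Of the other annotations on the plus strand, those higher were ENSG00000290893 (0 and 2 against 14 and 14, log2 fold change 3.36), ENSG00000279068 (1 and 0 against 40 and 35, log2 fold change 5.64), ENSG00000279983 (1 and 6 against 35 and 43, log2 fold change 3.13), ENSG00000288095 (2 and 5 against 29 and 21, log2 fold change 2.50) and ENSG00000272070 (0 and 1 against 15 and 13, log2 fold change 4.22). Except for the annotations that lie between the clusters, these spans overlap or adjoin protocadherin exons or resemble them, and how many alignments are their own was not tested.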

How the results depend on the processing

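The calls on the 15 nested alpha spans, the 22 nested gamma spans and the 6 beta genes held under DESeq2, library size, a log2 fold change beyond 1 and each library left out. The alpha spans and the beta genes reached the minimum only in primed libraries, so the direction of their calls was fixed. Nested spans share most of their alignments and are not separate results. The count of members called changed by more than 1.5 times where the minimum changed what could be tested. Without a minimum 10 beta genes were called, and with at least 50 counts 2 beta genes, 1 alpha interval, 1 gamma interval and 4 variable exons, which were all that reached it. DESeq2 called 6 of the 10 gamma intervals, and the cause was not tested. With library size the folds were 94.0 for the alpha cluster, 20.3 for the beta cluster and 7.02 for the gamma cluster, and all genes gave 15542 higher and 4504 lower in place of 10327 and 9009, since the naïve and primed TMM factors differ. Leaving out a library gave 7 to 10 gamma intervals and 19 to 24 variable exons. With 1 library in a state, that library is assumed to vary like those of the other state.

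Of the 348 values for 36 single member genes and intervals under the alternatives, 337 kept their direction and call, 11 lost the call, all in gamma intervals, and none changed direction. Among 13 genes of the lists, 3 changed direction: CTCF (0.18) and SMCHD1 (0.22) under library size and PCDH12 (1.55) with the longest isoform. A further 10 values of these genes lost the call, among them DIAPH1 under library size (-0.12, edgeR adjusted p = 0.533), CTCF without naïve replicate 2 (-0.24, adjusted p = 0.277) and SMCHD1 without naïve replicate 2 (-0.31, adjusted p = 0.162) or primed replicate 1 (-0.30, adjusted p = 0.169). The replicate number as a block, for which the labels give no shared origin and the deviations of same-numbered libraries had a correlation of 0.041, called 19690 genes in place of 19336, with all 6 beta genes, 13 alpha and 10 gamma intervals and 24 variable exons. No member isoform was called for usage under any setting, in a test to which the shared alignments of overlapping spans leave little room. Most naïve counts of alpha and beta genes were at 2 or below, which limits their folds to wide intervals. The beta genes, alpha spans and intervals tested did not reach the minimum in both naïve libraries, so a kept direction says little. The same holds for the variable exons tested except that of PCDHGA10.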
